A study of Mus musculus with 40 samples.

Results

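The SMAD genes and the feedback repressors of SMAD signaling were followed across all treatments. The members were 10 genes taken by name: the receptor-regulated Smad1, Smad5, Smad2 and Smad3, the common Smad4, the inhibitory Smad6 and Smad7, the SKI family co-repressors Ski and Skil, and the membrane protein gene Pmepa1. They were 10 of 55414 genes in the count table, and all 10 were among the 25210 genes tested, with 420 counts or more per library for each of them. RNA came from passage 1 cardiac fibroblasts of adult C57BL/6J TAK1fl/fl mice, in which loxP sites flank exon 2 of Map3k7, the gene for TAK1. All cells, controls included, carried these alleles and an adenovirus, either Ad-CMV-LacZ (LacZ) or Ad-CMV-iCre (iCre, which encodes Cre recombinase). In both, expression was driven by the CMV promoter, which is active in any transduced cell. After serum starvation the cells received no ligand (CTRL), bFGF at 20 ng/ml, TGFβ at 10 ng/ml, IL-1β at 15 ng/ml or TNFα at 10 ng/ml for 24 h, with 4 replicates from male mice in each of the 10 groups.

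Ligands of the TGFβ family bind pairs of transmembrane kinases, which phosphorylate the receptor-regulated SMADs. Smad2 and Smad3 carry signals of TGFβ and activin, whereas Smad1 and Smad5 carry those of bone morphogenetic proteins, and both pairs bind Smad4 to act on DNA in the nucleus. Smad6 and Smad7 block the receptors or the receptor-regulated SMADs, Ski and Skil (SnoN) recruit co-repressors to SMAD complexes, and the Pmepa1 protein sequesters Smad2 and Smad3. Skil, Smad7 and Pmepa1 are known targets of TGFβ signaling, so that the pathway limits itself. In cardiac fibroblasts, Smad3 is known for its part in the myofibroblast phenotype. TAK1 is a kinase that relays IL-1β, TNFα and TGFβ receptor signals outside the SMAD branch.

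Sequences upstream of the start site are shown for 2 members on chromosome 9, Smad3, which TGFβ lowered in LacZ cells, and the inhibitory Smad6, which did not pass the test there. The difference between them was not tested. RefSeq promoter entries of GRCm38.p6 matched 5 of the 10 members by symbol (Smad1, Smad3, Smad5, Smad6 and Ski). Each run below covers the 250 bases before the annotated start, 5′ to 3′ on the minus strand, and capitals mark GTCT or its reverse complement AGAC, the core letters bound by Smad3 and Smad4.

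Smad3, chr9:63757995-63758244: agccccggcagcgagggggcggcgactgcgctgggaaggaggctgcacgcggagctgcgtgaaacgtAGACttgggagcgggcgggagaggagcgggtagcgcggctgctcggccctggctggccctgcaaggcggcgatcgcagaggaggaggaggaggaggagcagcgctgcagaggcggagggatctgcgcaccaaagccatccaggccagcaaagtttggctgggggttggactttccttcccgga

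Smad6, chr9:64022060-64022309: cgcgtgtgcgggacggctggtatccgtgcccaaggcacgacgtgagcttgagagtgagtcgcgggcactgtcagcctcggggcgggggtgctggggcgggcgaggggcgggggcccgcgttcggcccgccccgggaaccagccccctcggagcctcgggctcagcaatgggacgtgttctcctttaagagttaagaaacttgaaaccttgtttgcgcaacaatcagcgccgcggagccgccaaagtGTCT

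The 4-letter core occurred once in each window, 183 bases before the start of Smad3 and 4 bases before that of Smad6, and it was present in 82.9% of the 32851 windows of the same length. The longer CAGAC (reverse complement GTCTG), which contains AGAC, was absent from both windows and present in 42.2% of all windows, and GGCGCC was likewise absent from both and present in 9.59%. The palindrome GTCTAGAC occurred in 0.167% of windows and in neither of these. Such matches describe letters only.

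Between 25360947 and 66160732 reads were counted on genes per library (median 36183962), and levels are given as CPM, the usual depth-scaled unit, here after TMM scaling. In each of the 40 libraries the summed CPM of 8 fibroblast markers was 10069.7 or more, against 13.3 to 150.2 for 4 macrophage and leukocyte markers, 0.814 to 13.5 for 4 endothelial markers, 143 to 1985 for 4 mural markers and 0.570 to 111 for the 3 cardiomyocyte markers tested. The highest single values were 1366 CPM for Rgs5 (mural), 129.8 CPM for Lyz2 (macrophage), 110.3 CPM for Tnnt2 (cardiomyocyte) and 12.4 CPM for Cdh5 (endothelial), while Ptprc, which marks all leukocytes, reached 2.08 CPM and Pecam1 of endothelium 1.32 CPM. Tie1, Actc1 and Ryr2 were at 0 in some libraries. Of the 8 fibroblast markers Col3a1, Col1a2 and Col1a1 had the highest medians, 10755, 5891 and 4905 CPM, against 1341 CPM for Dcn and less for the others. The fibroblast sum therefore mainly follows these collagen genes and need not reflect the number of fibroblasts. In 12 libraries, those of iCre cells given TGFβ, IL-1β or TNFα, log2 CPM rose with GC content by 0.190 to 0.319 per 10 percentage points of GC relative to the mean library, whereas in the other 28 libraries the slope lay between −0.234 and −0.000235. These 12 libraries also have the last consecutive library numbers in the labels. The GC shift, the library order and these iCre treatments therefore coincide. They cannot be told apart in any comparison or interaction that uses these libraries. Because of the shift, each comparison was also fitted with a correction for GC content, without and with the replicate block, which is given where it changed the call of a member. Map3k7 was counted over all of its exons, the deleted one and those that remain, so its level is only a partial check of the deletion. It was lower in iCre than in LacZ without overlap under each treatment, with means of 153 and 127 CPM in CTRL and 239 and 144 CPM with TNFα. Its difference was called under TGFβ, IL-1β and TNFα, but not in CTRL (edgeR adjusted p = 0.137) or with bFGF (edgeR adjusted p = 0.351), where it was called with the replicate block (edgeR adjusted p = 0.00393 and 0.000409).

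On a per-length scale, Ski and Pmepa1 had the highest levels of the 10 genes in LacZ CTRL cells, and Smad7 and Skil the lowest. Mean CPM per kilobase of exon was 55.2 for Ski, 47.7 for Pmepa1, 28.5 for Smad3, 26.4 for Smad4, 14.8 for Smad6, 14.0 for Smad5, 7.04 for Smad2, 6.52 for Smad1, 4.99 for Smad7 and 4.19 for Skil (n = 4 each). Of the 9 steps between neighbours in this order, 4 were larger than the spread, with no overlap between Ski and Pmepa1, Pmepa1 and Smad3, Smad4 and Smad6, or Smad5 and Smad2. The order within each other pair of neighbours was not resolved by these libraries. With TGFβ, Pmepa1 became the first of the 10 in LacZ cells at 309 CPM per kilobase, Smad7 reached 27.0 and Skil 23.1 CPM per kilobase, while Smad3 was at 15.2 CPM per kilobase. Among the members, Skil had the lowest GC content in its longest transcript (41.0%) and Smad6 the highest (60.8%). Annotated exons of Smad5 overlap 100 bases of Gm27301 on the same strand, so a few of its reads could belong to either, and no other member shares exonic bases with another gene. Smad2, Smad4 and Smad7 lie on chromosome 18 of GRCm38, Smad3 (63646767 to 63757994) and Smad6 (63953076 to 64022059) on chromosome 9, Smad1 on chromosome 8, Smad5 on 13, Ski on 4, Skil (31095058 to 31122577) on 3 and Pmepa1 (173224458 to 173276533) on 2.

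**Figure D1:**
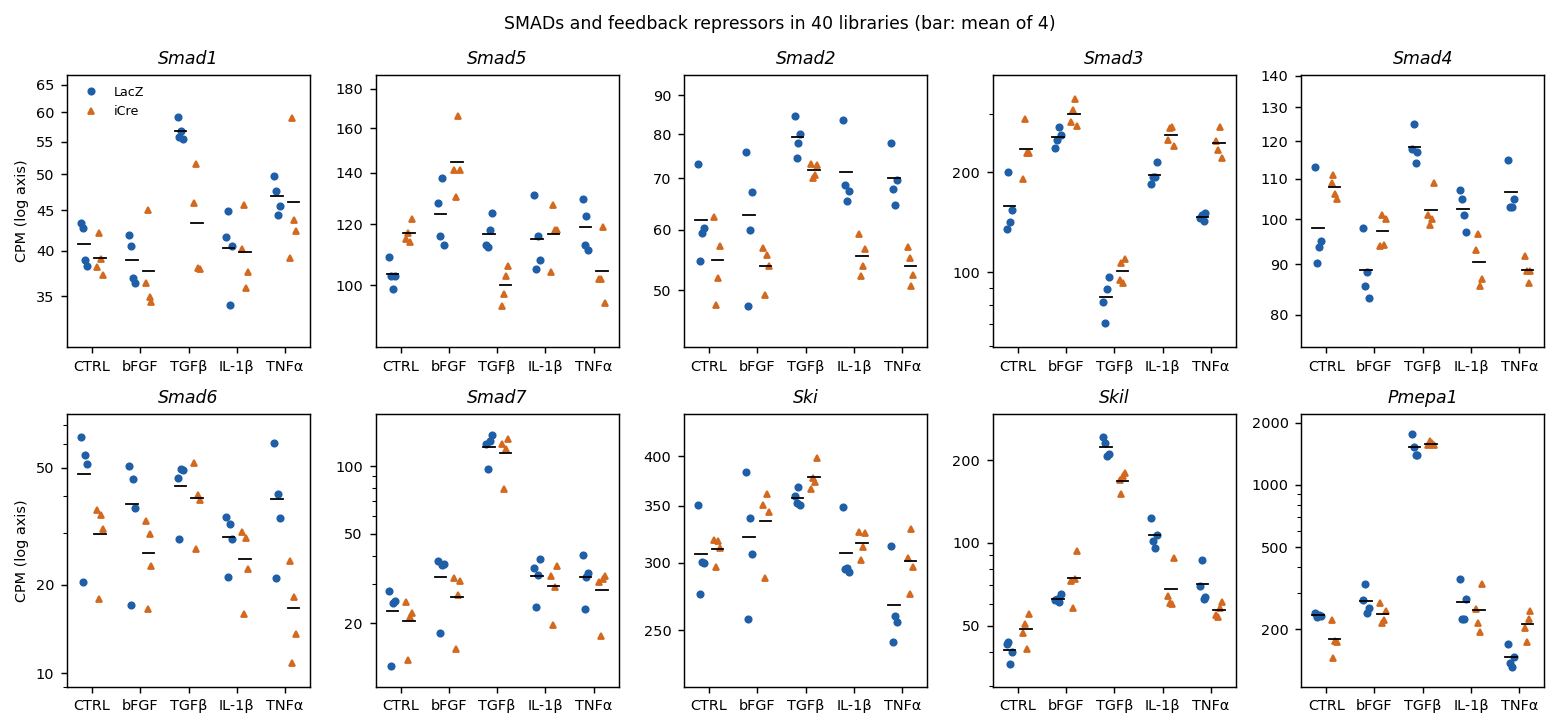
Level of each of the 10 genes in the 40 libraries, in CPM on a log axis, by treatment; blue circles are LacZ and orange triangles iCre libraries, and black bars are means of 4. Skil, Smad7 and Pmepa1 stood highest with TGFβ in both LacZ and iCre cells, and Smad3 stood lowest there, from 70.7 to 109.9 CPM.

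TGFβ raised the feedback genes Pmepa1, Skil and Smad7 by more than any other member and lowered Smad3 in LacZ fibroblasts. Pmepa1 was at 240.3, 229, 235 and 233 CPM in the 4 CTRL libraries and at 1761, 1525, 1394 and 1391 CPM with TGFβ. Every TGFβ library lay above every CTRL library, a log2 fold change of 2.71 (SE 0.12, edgeR adjusted p = 6.43e-07) or 6.56-fold. Skil, whose product holds SMAD complexes in a repressed state, was at 42.8, 43.6, 36.2 and 39.9 CPM in CTRL and at 244, 232, 208 and 211 CPM with TGFβ. These groups did not overlap either, and the log2 fold change was 2.48 (SE 0.10, edgeR adjusted p = 6.43e-07). Smad7, which targets the type I receptor for degradation, was at 12.9 CPM in replicate 2 and between 24.7 and 27.7 CPM in the other CTRL libraries, and at 125, 96.8, 129 and 138 CPM with TGFβ. Replicate 2 was the lowest of both groups, yet the groups were far apart, with a log2 fold change of 2.45 (SE 0.23, edgeR adjusted p = 2.36e-05). Smad3 fell from 135, 201, 142 and 154 CPM in CTRL to 81.5, 70.7, 89.0 and 96.7 CPM with TGFβ. All 4 TGFβ libraries were below the CTRL libraries, and the log2 fold change was −0.88 (SE 0.13, edgeR adjusted p = 0.000492). Marker sums moved too, with mural markers going from 184 to 725 CPM in CTRL to 741 to 1273 CPM, fibroblast markers from 27611 to 43314 CPM to 51539.8 to 60845 CPM and cardiomyocyte markers from 14.7 to 111 CPM to 3.10 to 14.5 CPM, each in the same direction in all 4 pairs. Leukocyte markers, from 45.9 to 138 CPM to 21.1 to 84.6 CPM, and endothelial markers, from 1.45 to 13.5 CPM to 1.19 to 5.79 CPM, were also lower with TGFβ in all 4 pairs. Their part in the changes of the members was not tested.

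The remaining members moved little with TGFβ in LacZ cells, and the direction of several small changes depended on the scaling. Smad1 rose by 0.50 on the log2 scale (SE 0.08, edgeR adjusted p = 0.000589), from 40.8 ± 2.61 to 56.8 ± 1.67 CPM (SD, n = 4), and its groups did not overlap. Smad2 was called at 0.38 (SE 0.11, edgeR adjusted p = 0.0173) and Smad4 at 0.29 (SE 0.09, edgeR adjusted p = 0.0306), but with library sizes alone these values were −0.03 and −0.11 and neither was called, while Smad1 was at 0.08. That scaling lowered the median log2 fold change of well-counted genes from −0.01 to −0.42, and it left Pmepa1, Skil, Smad7 and Smad3 as the 4 called members. Smad5 (0.19, edgeR adjusted p = 0.0646), Ski (0.24, edgeR adjusted p = 0.0858) and Smad6 (−0.13, edgeR adjusted p = 0.792) did not pass the threshold, and with library sizes alone Smad5 was at −0.22 and Ski at −0.17. In all, 7 of 10 members were called, against 36.9% of all genes tested, and their median log2 fold change was 0.33 against −0.17 over all genes tested. With the replicate number as a block 8 members were called, against 42.0% of all genes, with Ski added (edgeR adjusted p = 0.0325). The GC correction with the block added Smad5 (0.24, edgeR adjusted p = 0.0204), where 42.7% of all genes were called. Leaving out replicate 2 ended the call for Smad4, and leaving out replicate 3 or replicate 4 ended those for Smad2 and Smad4, with 6, 5 and 5 members called. Without replicate 1, 8 members were called. The shares of all genes called without replicates 1, 2, 3 and 4 were 30.5%, 37.1%, 25.9% and 26.9%.

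In iCre fibroblasts TGFβ again gave its largest changes in Pmepa1, Smad7, Skil and Smad3. Pmepa1 was at 222, 146, 176 and 174 CPM in CTRL and at 1553, 1635, 1589.8 and 1557 CPM with TGFβ, a log2 fold change of 3.16 (SE 0.14, edgeR adjusted p = 4.69e-07). The TGFβ libraries were tightly grouped and far above CTRL. Skil was at 46.8, 50.6, 41.0 and 55.1 CPM in CTRL and at 169, 150.4, 175 and 180.0 CPM with TGFβ. The groups did not overlap, and the log2 fold change was 1.82 (SE 0.11, edgeR adjusted p = 1.43e-06). Smad7 rose by 2.49 (SE 0.21, edgeR adjusted p = 8.77e-06), to 114 ± 23.7 CPM from 20.5 ± 4.78 CPM (SD, n = 4). Smad3 changed by −1.19 (SE 0.12, edgeR adjusted p = 3.26e-05), from 235 ± 40.6 to 101 ± 8.49 CPM (SD, n = 4). Smad2 (0.41, edgeR adjusted p = 0.00599), Ski (0.30, edgeR adjusted p = 0.0100) and Smad5 (−0.21, edgeR adjusted p = 0.0474) were also called, although with library sizes alone Smad2 was at −0.04 and Ski at −0.14. In all 4 iCre pairs mural markers were higher with TGFβ, at 815 to 1985 CPM against 355 to 1001 CPM, as were fibroblast markers, at 42154 to 57049.8 CPM against 17675 to 32239.5 CPM. Leukocyte markers, at 13.3 to 56.2 CPM against 22.1 to 76.0 CPM, and cardiomyocyte markers, at 3.52 to 12.9 CPM against 7.07 to 44.4 CPM, were lower in all 4 pairs, and the part of these markers was not tested. Ski (0.12, edgeR adjusted p = 0.239) and Smad5 (−0.01, edgeR adjusted p = 0.946) were not called with the GC correction. Thus 7 of 10 members were called, against 37.4% of all genes, with a median log2 fold change of 0.35 against −0.11 over all genes tested. With the replicate block 7 were called, against 41.5% of all genes, with Smad6 (0.43, edgeR adjusted p = 0.00193, but −0.02 with library sizes alone and no block) added and Smad5 (edgeR adjusted p = 0.0502) lost. The GC correction with the block ended the call for Ski (0.13, edgeR adjusted p = 0.275). That fit called 41.3% of all genes, and the GC correction alone 36.8%. The call for Smad5 was lost when any of the 4 replicate numbers was left out, that for Ski without replicate 3 or replicate 4, and that for Smad2 without replicate 3. Without replicates 1, 2, 3 and 4 in turn, 6, 7, 4 and 5 members were called, with Smad6 added without replicate 2. In those fits 30.2%, 40.0%, 27.0% and 28.6% of all genes were called.

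In the fits without the GC correction, the response to TGFβ differed between LacZ and iCre cells for Skil and Smad5. For Skil the interaction, the log2 fold change in iCre minus that in LacZ, was −0.69 (95% CI −0.98 to −0.39, edgeR adjusted p = 0.00797), a smaller rise in iCre cells. For Smad5 it was −0.42 (95% CI −0.62 to −0.23, edgeR adjusted p = 0.0110). These 2 of 10 members stood against 4.51% of all genes, and 3 of 10 with the block against 8.04%, Smad4 being added at −0.38 (edgeR adjusted p = 0.0369). Neither was called with the GC correction, at −0.30 for Skil (edgeR adjusted p = 0.556) and −0.28 for Smad5 (edgeR adjusted p = 0.318). The GC correction with the block called 2 other members, Smad1 at −0.52 (edgeR adjusted p = 0.0276) and Smad4 at −0.44 (edgeR adjusted p = 0.0448). That fit called 2.55% of all genes, and the GC correction alone 0.565%. The interaction was 0.02 for Smad7 (95% CI −0.67 to 0.71) and 0.42 for Pmepa1 (95% CI 0.06 to 0.77, edgeR adjusted p = 0.224), so a difference of up to those bounds could not be told from none for Smad7. Without replicate 4 no member was called, and without replicate 1 or replicate 4 Skil was not (edgeR adjusted p = 0.0563 and 0.0608). Smad5 was not called without replicate 3 or replicate 4, whereas Pmepa1 was called without replicate 1 and Smad6 without replicate 2. The numbers of called members without replicates 1, 2, 3 and 4 were 2, 3, 1 and 0, against 2.62%, 5.27%, 1.28% and 1.51% of all genes.

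IL-1β raised Skil and left the other members below the threshold in the fit without a block. In LacZ cells Skil was at 123, 102, 96.2 and 107 CPM with IL-1β, all above the CTRL range of 36.2 to 43.6 CPM, a log2 fold change of 1.41 (SE 0.10, edgeR adjusted p = 1.31e-05). In iCre cells it was at 64.1, 60.6, 59.7 and 88.0 CPM, a log2 fold change of 0.51 (SE 0.14, edgeR adjusted p = 0.0367). Those 4 libraries also lay above the CTRL range of 41.0 to 55.1 CPM, but leaving out replicate 1 or replicate 3 ended the call (edgeR adjusted p = 0.150 and 0.110), as did RLE scaling (0.48, edgeR adjusted p = 0.0558), which called Smad4 instead (−0.26, edgeR adjusted p = 0.0307), and scaling by library size alone (0.37, edgeR adjusted p = 0.119). The value for Skil in iCre cells was 0.90 with the GC correction (edgeR adjusted p = 0.00599), which also called Smad4 (−0.33, edgeR adjusted p = 0.0189) and 9.64% of all genes. The rise was smaller in iCre cells, with an interaction of −0.91 (95% CI −1.29 to −0.53, edgeR adjusted p = 0.00431). With the GC correction and the block it was −0.54 and still called (edgeR adjusted p = 0.0131), but not with the GC correction alone (−0.53, edgeR adjusted p = 0.128) nor without replicate 1 (−0.82, edgeR adjusted p = 0.0650). Those fits, in that order, called 12.2%, 3.84% and 3.67% of all genes. In all 4 LacZ pairs mural markers were higher with IL-1β, at 318 to 853 CPM against 184 to 725 CPM, as were fibroblast markers, at 34731 to 66861 CPM against 27611 to 43314 CPM, and cardiomyocyte markers were lower, at 0.570 to 1.85 CPM against 14.7 to 111 CPM. In all 4 iCre pairs leukocyte markers were higher with IL-1β, at 27.0 to 102 CPM against 22.1 to 76.0 CPM, and cardiomyocyte markers lower, at 2.24 to 16.2 CPM against 7.07 to 44.4 CPM. The part of these markers in the response of Skil was not tested.

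Skil was 1 of 10 members called with IL-1β in LacZ cells, against 20.7% of all genes, and 1 of 10 in iCre cells, against 16.3%. The members' median log2 fold change was 0.19 in LacZ and 0.04 in iCre cells, against −0.10 and 0.00 over all genes tested. With the replicate block 5 of 10 were called in LacZ cells, against 33.5% of all genes. Smad7 rose by 0.57 (edgeR adjusted p = 5.56e-06), Smad3 by 0.34 (edgeR adjusted p = 0.00131) and Smad2 by 0.22 (edgeR adjusted p = 0.0259), whereas Smad6 changed by −0.61 (edgeR adjusted p = 2.28e-05). In iCre cells 5 of 10 were called with the block, against 33.8%, with Smad7 at 0.53 (edgeR adjusted p = 1.85e-08), Pmepa1 at 0.46 (edgeR adjusted p = 6.93e-08), Smad4 at −0.23 (edgeR adjusted p = 0.00418) and Smad6 at −0.26 (edgeR adjusted p = 0.00553) beside Skil. The GC correction with the block added Ski there, at −0.16 (edgeR adjusted p = 0.0467), with 29.4% of all genes called. The interaction called 1 of 10 members without the block, against 7.71% of all genes, and 2 of 10 with it, against 16.9%, with Smad4 added at −0.32 (edgeR adjusted p = 0.0199). Leaving out replicate 2, in which Smad6 and Smad7 were low, gave 4 called members in LacZ (Smad3, Smad6 and Smad7 added) and 2 in iCre cells (Smad7 added), against 23.4% and 18.1% of all genes. Without replicate 1 or replicate 3 none was called in iCre cells (6.85% and 7.55% of all genes), and without replicate 1 the interaction called none (3.67%).

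TNFα raised Skil and lowered Pmepa1 in LacZ fibroblasts. Pmepa1 was at 169, 138, 132 and 147 CPM with TNFα, below the CTRL range of 229 to 240.3 CPM, a log2 fold change of −0.67 (SE 0.09, edgeR adjusted p = 0.000707). Skil was at 69.8, 86.5, 62.7 and 63.7 CPM, above every CTRL library, a log2 fold change of 0.80 (SE 0.11, edgeR adjusted p = 0.000877). The summed mural markers were lower with TNFα in each of the 4 LacZ pairs, at 143 to 500.4 CPM against 184 to 725 CPM, as were the fibroblast markers, at 23347 to 30703 CPM against 27611 to 43314 CPM. Cardiomyocyte markers, at 1.01 to 6.65 CPM against 14.7 to 111 CPM, and endothelial markers, at 0.814 to 10.3 CPM against 1.45 to 13.5 CPM, were lower in each of these pairs as well, and the part of these markers was not tested. In iCre cells the same genes gave 0.27 for Pmepa1 (edgeR adjusted p = 0.213) and 0.26 for Skil (edgeR adjusted p = 0.0939). Skil was called there with the GC correction, at 0.65 (edgeR adjusted p = 0.00249), as was Smad6, at −0.91 (edgeR adjusted p = 0.0304), with 24.4% of all genes called. Smad4, the partner of all receptor-regulated SMADs, was the only member called there in the fit without block or GC correction, at −0.24 (SE 0.07, edgeR adjusted p = 0.0230), and was not called without replicate 2, replicate 3 or replicate 4, which left 2, 0 and 0 members called. Leaving out replicate 1 gave 2 called members, with Smad6 added. Without replicates 1, 2, 3 and 4 the shares of all genes called were 24.9%, 25.4%, 14.0% and 16.5%. In all 4 iCre pairs fibroblast markers were lower with TNFα, at 10069.7 to 18507 CPM against 17675 to 32239.5 CPM, as were cardiomyocyte markers, at 0.833 to 20.2 CPM against 7.07 to 44.4 CPM, and leukocyte markers were higher, at 26.6 to 108 CPM against 22.1 to 76.0 CPM. Their part was not tested.

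In the fit without block or GC correction, the response to TNFα differed between LacZ and iCre cells for 4 members. The interaction was 0.93 for Pmepa1 (95% CI 0.55 to 1.32, edgeR adjusted p = 0.00211) from changes of −0.67 in LacZ and 0.27 in iCre cells. It was −0.55 for Skil (95% CI −0.88 to −0.21, edgeR adjusted p = 0.0252), −0.38 for Smad4 (95% CI −0.60 to −0.16, edgeR adjusted p = 0.0206) and −0.35 for Smad5 (95% CI −0.58 to −0.11, edgeR adjusted p = 0.0433). After GC correction, Pmepa1 (0.76, edgeR adjusted p = 0.0106) and Smad4 (−0.42, edgeR adjusted p = 0.0291) were still called, whereas Skil was at −0.13 (edgeR adjusted p = 0.708) and Smad5 at −0.19 (edgeR adjusted p = 0.384). These 4 of 10 members stood against 16.1% of all genes, and 5 of 10 with the block against 25.1%, with Smad6 added (−0.55, edgeR adjusted p = 0.0336). Block and GC correction together called 3, without Skil (edgeR adjusted p = 0.679) and Smad5 (edgeR adjusted p = 0.296). That fit called 21.1% of all genes, and the GC correction alone 11.9%. Any replicate number left out reduced the 4 calls, to 2 without replicate 1 and to 1 without each of replicates 2, 3 and 4. The shares of all genes called in those fits were 15.4%, 13.5%, 5.39% and 6.81%. Pmepa1 and Smad4 were still called without replicate 1, Pmepa1 alone without replicate 2 or replicate 4, and Skil alone without replicate 3.

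With TNFα, 2 of 10 members were called in LacZ cells, against 21.3% of all genes, and 1 of 10 in iCre cells, against 27.0%. The members' median log2 fold changes were 0.15 and 0.05, against −0.08 and −0.04 over all genes tested. With the block 8 of 10 were called in LacZ cells, against 35.5% of all genes, the largest added change being that of Smad7, which was 22.6 ± 6.59 CPM in CTRL and 32.2 ± 6.99 CPM with TNFα (SD, n = 4), at 0.54 on the log2 scale (edgeR adjusted p = 3.62e-05). Adding the GC correction to the block left 5 called, against 36.1% of all genes. Smad5 (0.15, with an adjusted p just above the threshold), Smad2 (0.14, edgeR adjusted p = 0.104) and Smad6 (−0.16, edgeR adjusted p = 0.170) were not called. In iCre cells 5 of 10 were called with the block, against 36.1%, and Smad6 was the largest at −0.81 (edgeR adjusted p = 0.000271). Adding the GC correction left 4 called there, against 34.5% of all genes, without Smad1 (0.15, edgeR adjusted p = 0.276). Without replicate 2, Smad7 was also called in LacZ cells, 3 members in all, against 23.5% of all genes.

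bFGF raised Smad3 and Skil in LacZ cells. Smad3 was at 237, 250.1, 273 and 258 CPM with bFGF, above the highest CTRL library at 201 CPM, a log2 fold change of 0.71 (SE 0.13, edgeR adjusted p = 0.00744). Skil was at 61.9, 62.4, 60.7 and 65.3 CPM, again above all CTRL libraries, a log2 fold change of 0.64 (SE 0.08, edgeR adjusted p = 0.00215). Against the same CTRL libraries, TGFβ had changed Smad3 by −0.88. These 2 of 10 members stood against 11.6% of all genes, and 5 of 10 with the block against 27.3%, with Smad5 (0.28), Smad7 (0.53) and Smad6 (−0.32) added. When the GC correction was added to the block, Smad5 was not called (0.19, edgeR adjusted p = 0.0810) and Pmepa1 was (0.26, edgeR adjusted p = 0.0465), with 27.2% of all genes called. In all 4 LacZ pairs fibroblast markers were lower with bFGF, at 19511 to 26439.9 CPM against 27611 to 43314 CPM, as were leukocyte markers, at 30.7 to 95.2 CPM against 45.9 to 138 CPM, and cardiomyocyte markers, at 1.13 to 30.0 CPM against 14.7 to 111 CPM. Their part was not tested. Smad3 was not called without replicate 3 or replicate 4, which left 1 member called (1.32% and 2.48% of all genes), and 3 were called without replicate 2 (18.2%).

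In iCre cells bFGF gave 0 called members, against 2.42% of all genes, and 5 of 10 with the block, against 16.7%. DESeq2 called Smad5 and Skil, against 11.7% of the genes it tested. An unadjusted edgeR p of 0.05 or less was found for 4 of the 10 members and for 4213 of 25210 genes. The Skil values of 72.5, 57.8, 74.1 and 93.6 CPM all lay above the CTRL range, with a log2 fold change of 0.63 (edgeR adjusted p = 0.0658, and 0.000275 with the block). Leaving out replicate 2 gave 4 called members, Skil, Smad3, Smad5 and Smad7, against 12.7% of all genes. Without replicate 1, replicate 3 or replicate 4, 0 of all genes were called. Leukocyte markers, at 13.4 to 55.5 CPM against 22.1 to 76.0 CPM, and cardiomyocyte markers, at 1.27 to 15.5 CPM against 7.07 to 44.4 CPM, were lower with bFGF in all 4 iCre pairs, and their part was not tested. The response to bFGF was not shown to differ between LacZ and iCre cells for any member, with 0 of 10 interactions called by edgeR, against 0% of all genes, both without and with the block. DESeq2 also called 0 genes. None of the 10 members and 765 of all genes had an unadjusted edgeR p of 0.05 or less, and for Skil the 95% CI of the difference ran from −0.36 to 0.37. The members' median log2 fold changes with bFGF were 0.17 in LacZ and 0.22 in iCre cells, against −0.03 and 0.00 over all genes tested.

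**Figure D2:**
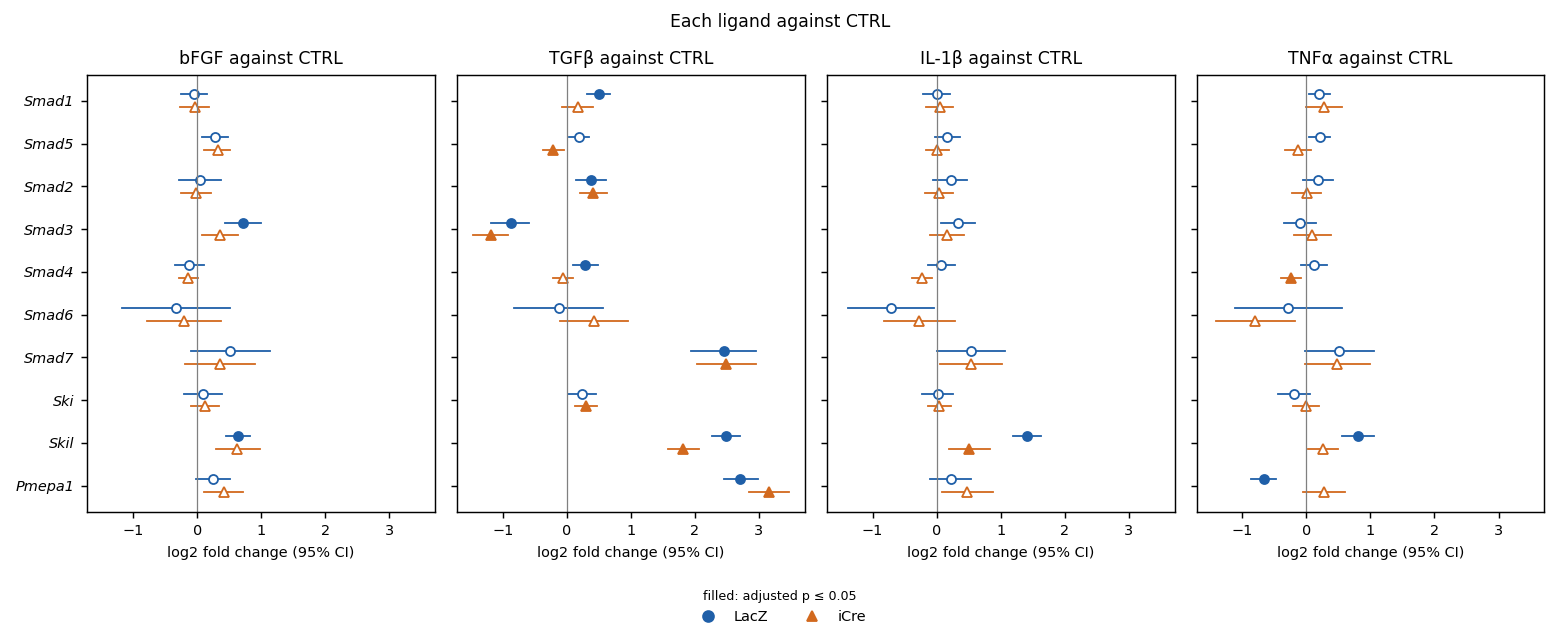
Log2 fold change of each ligand against CTRL with its 95% confidence interval, for 10 genes in LacZ (blue circles) and iCre (orange triangles) cells on a shared axis; filled symbols have an edgeR adjusted p of at most 0.05. With TGFβ, Pmepa1, Skil and Smad7 lie between 1.82 and 3.16 and Smad3 at −0.88 and −1.19, while the small TGFβ values of Smad2, of Smad4 in LacZ cells and of Ski change sign when library size alone is used for scaling.

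Direct comparison of iCre with LacZ under each treatment gave no called member in CTRL or with bFGF, and several with the other ligands. In CTRL, 0 of 10 members were called, against 0.0754% of all genes. An unadjusted edgeR p of 0.05 or less was found for 4 of 10 members and for 3538 of 25210 genes. DESeq2 called Smad3 alone, against 8.88% of the genes it tested. With the block 4 of 10 were called, against 14.5%: Smad3 at 0.56 (edgeR adjusted p = 1.06e-05), Skil at 0.23 (edgeR adjusted p = 0.0354), Pmepa1 at −0.41 (edgeR adjusted p = 0.00115) and Smad6 at −0.63 (edgeR adjusted p = 0.000166). The GC correction with the block added Smad5 at 0.21 (edgeR adjusted p = 0.0423), with 15.0% of all genes called. Smad3 was at 135, 201, 142 and 154 CPM in LacZ and at 191, 289, 229 and 229 CPM in iCre CTRL cells, higher in iCre in each of the 4 same-numbered pairs. Pmepa1, at 222 CPM or less in iCre, lay below the lowest LacZ library at 229 CPM. Without replicate 2, Smad3 and Smad6 were called, 2 members in all, against 2.78% of all genes. With bFGF, 0 of 10 members were called by edgeR or DESeq2. The edgeR call rate was 0% of all genes, with 2585 genes and 1 of 10 members at an unadjusted edgeR p of 0.05 or less, and DESeq2 called 481 genes. With the block 4 of 10 were called, against 13.9%, with Smad3 (0.23) and Smad5 (0.22) higher and Smad6 (−0.49) and Smad7 (−0.29) lower in iCre cells. The GC correction with the block added Skil at 0.29 (edgeR adjusted p = 0.0309), with 14.3% of all genes called.

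In the fit without block or GC correction, Skil and Smad1 were lower in iCre than in LacZ cells with TGFβ. The log2 difference was −0.44 for Skil (SE 0.09, edgeR adjusted p = 0.0130) and −0.42 for Smad1 (SE 0.11, edgeR adjusted p = 0.0385), neither with overlap between groups. These 2 of 10 members stood against 8.37% of all genes, and 4 of 10 with the block against 20.8%, with Smad4 (−0.25) and Smad5 (−0.25) added. After GC correction the difference of Skil was 0.01 (edgeR adjusted p = 1.00) and that of Smad1 was −0.56 (edgeR adjusted p = 0.0515). With the GC correction and the block together Smad1 was at −0.57 (edgeR adjusted p = 3.04e-05), Smad6 at −0.50 (edgeR adjusted p = 0.000164), Smad7 at −0.43 (edgeR adjusted p = 0.000435) and Smad4 at −0.29 (edgeR adjusted p = 0.0186). Smad5 was not called in that fit (−0.07, edgeR adjusted p = 0.833), nor was Skil (0.01). That fit called 9.53% of all genes, and the GC correction alone 1.01%. Both calls were lost without replicate 1, replicate 3 or replicate 4, which left 0 members called, and 3 were called without replicate 2.

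With IL-1β, Skil was lower in iCre cells by a log2 difference of −0.67 (SE 0.14, edgeR adjusted p = 0.00856), Smad2 by −0.38 (SE 0.10, edgeR adjusted p = 0.0272), and Smad3 was higher by 0.38 (SE 0.09, edgeR adjusted p = 0.0137). Smad3 was at 184, 194, 194 and 215 CPM in LacZ and at 250.2, 272, 273 and 240.1 CPM in iCre cells, with no overlap. These 3 of 10 members stood against 16.1% of all genes, and 5 of 10 with the block against 29.5%, with Smad4 (−0.19) and Smad6 (−0.29) added. None was called with the GC correction alone (by edgeR, smallest adjusted p = 0.0645, for Smad4), and with the GC correction and the block Skil was at −0.24 (edgeR adjusted p = 0.0696) and Smad3 at 0.20 (edgeR adjusted p = 0.0814), neither called. In that fit 5 members were called, Smad2 at −0.22 (edgeR adjusted p = 0.0443), Smad4 at −0.26 (edgeR adjusted p = 0.0140), Smad6 at −0.58 (edgeR adjusted p = 2.2e-05), Smad7 at −0.42 (edgeR adjusted p = 0.000542) and Pmepa1 at −0.36 (edgeR adjusted p = 0.0146). That fit called 22.5% of all genes, and the GC correction alone 9.04%. Without replicate 1 or replicate 3 no member was called (9.86% and 6.18% of all genes). Without replicate 2 or replicate 4 Smad2 was not called, which left 2 members (16.6% and 9.62% of all genes).

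With TNFα, Smad3 and Pmepa1 were higher and Smad6, Smad2 and Smad4 lower in iCre than in LacZ cells. Smad3 was at 146, 149, 143 and 151 CPM in LacZ and at 248, 234, 274 and 220.5 CPM in iCre cells. The LacZ libraries were close together and all below the iCre libraries, a log2 difference of 0.75 (SE 0.09, edgeR adjusted p = 0.000403), or 0.60 with the GC correction and the block (edgeR adjusted p = 0.000916). Smad6 was at 60.7, 21.1, 40.7 and 33.7 CPM in LacZ and at 24.1, 10.8, 18.1 and 13.6 CPM in iCre cells. These groups overlapped through the low replicate 2 of LacZ, but iCre was lower in each of the 4 pairs, with a log2 difference of −1.21 (SE 0.33, edgeR adjusted p = 0.0216) and −1.44 with the GC correction and the block (edgeR adjusted p = 3.09e-05). Pmepa1 was higher in iCre cells by 0.55 (SE 0.12, edgeR adjusted p = 0.00841), at 212 ± 29.9 against 147 ± 16.4 CPM (SD, n = 4). After GC correction it was at 0.37 and not called (edgeR adjusted p = 0.0549), and with the block added it was called at the same size (edgeR adjusted p = 0.0263). Smad2 (−0.36, edgeR adjusted p = 0.0105) was not called with the GC correction (edgeR adjusted p = 0.186), whereas Smad4 (−0.24, edgeR adjusted p = 0.0332) was (−0.27, edgeR adjusted p = 0.0312). These 5 of 10 members stood against 27.3% of all genes, and 5 of 10 with the block against 32.2%. The GC correction with the block also called 5, with Smad7 (−0.42, edgeR adjusted p = 0.0103) and without Smad2 (−0.18, edgeR adjusted p = 0.141). That fit called 28.5% of all genes, and the GC correction alone 22.9%. With TNFα LacZ libraries had summed mural markers of 268, 143, 500.4 and 358 CPM, whereas iCre libraries had 1234, 352, 1159 and 699.7 CPM, higher in iCre in each of the 4 pairs. Mural markers were also higher in iCre in each pair in CTRL, with bFGF and with TGFβ, and in 3 of 4 pairs with IL-1β. The summed fibroblast markers were lower in iCre in each pair in CTRL and with bFGF, IL-1β and TNFα, but not with TGFβ, at 10069.7 to 18507 CPM against 23347 to 30703 CPM with TNFα and at 17675 to 32239.5 CPM against 27611 to 43314 CPM in CTRL. Leukocyte markers were lower in iCre in each pair in CTRL and with bFGF. With IL-1β they were lower in iCre in replicates 2, 3 and 4, while replicate 1 was at 102 CPM in both. Cardiomyocyte markers were lower in iCre in each pair in CTRL and higher in each pair with IL-1β, and endothelial markers were higher in each pair with TNFα. The part of these markers in the differences of the members was not tested. Without replicate 3 or replicate 4 only Smad3 was called, and without replicate 2 Smad4 was not, which left 4. The members' median log2 differences in CTRL and with bFGF, TGFβ, IL-1β and TNFα in that order were −0.03, 0.01, −0.17, −0.16 and −0.18, against −0.04, 0.00, 0.00, 0.04 and 0.00 over all genes tested.

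**Figure D3:**
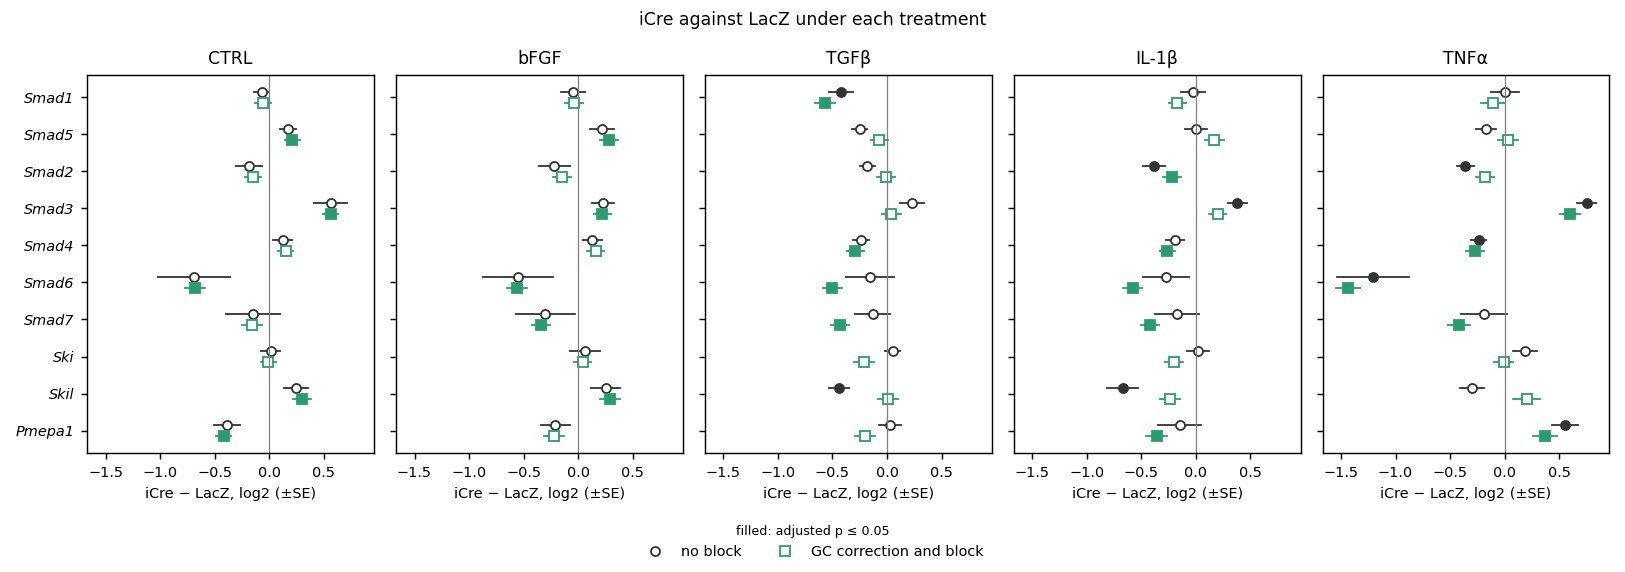
Log2 difference of iCre from LacZ cells for 10 genes under 5 treatments, with SE bars; black circles are the fit without a block and green squares the fit with the GC correction and the replicate block, filled at an edgeR adjusted p of at most 0.05. With TGFβ, Skil moves from −0.44 to 0.01 between the fits, whereas Smad3 with TNFα stays at 0.75 and 0.60 and Smad6 at −1.21 and −1.44.

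The inhibitory SMADs varied with the replicate number. Smad6 and Smad7 were lowest in replicate 2 in 10 of 10 groups each. The log2 ratio of replicate 2 to the mean of the other 3 libraries had a median over groups of −0.79 for Smad6 (range −1.47 to −0.57) and −0.73 for Smad7 (range −1.03 to −0.43), against −0.15 for Pmepa1 and −0.05 for Skil. In the same 10 groups replicate 2 was also the lowest for the summed macrophage and leukocyte, mural and cardiomyocyte markers and the highest for the summed endothelial markers, which there reached 4.80 to 13.5 CPM against 0.814 to 6.19 CPM in the other replicates. In replicate 2 the 4 mural markers summed to 143 to 815 CPM, against 268 to 1985 CPM elsewhere. Fewer cells of a type and less RNA per cell cannot be told apart in these bulk libraries, and the part of these markers in the levels of Smad6 and Smad7 was not tested. Smad2 was highest in replicate 1 in 10 of 10 groups.

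**Figure D4:**
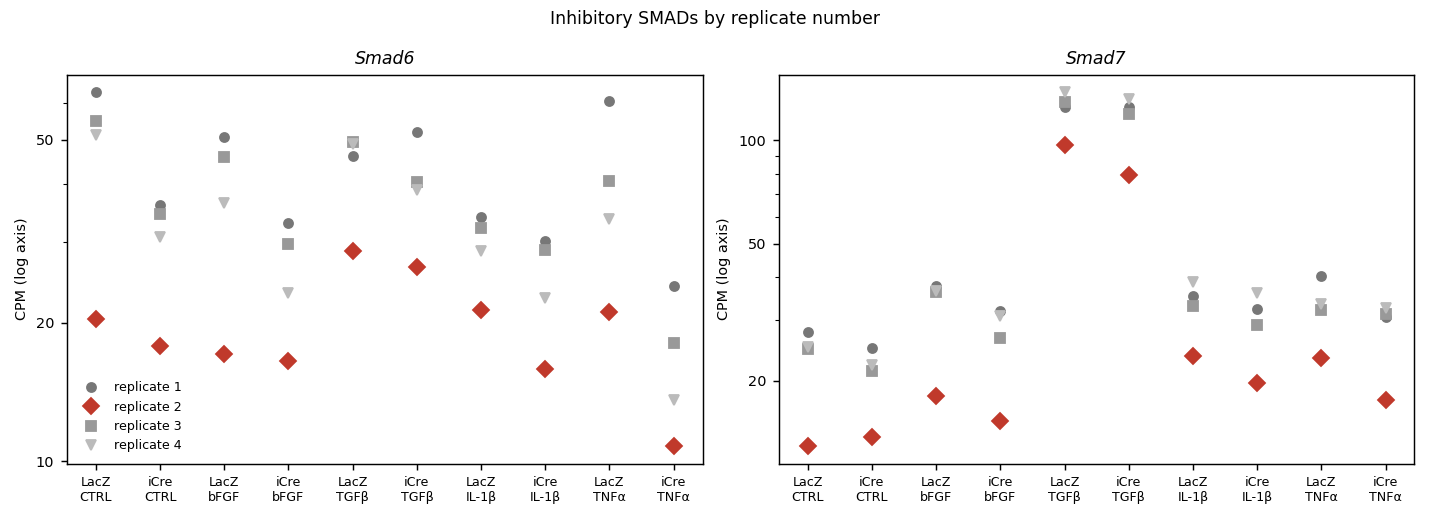
CPM (log axis) of Smad6 and Smad7 in each of the 10 groups, with 1 symbol for each replicate number. Replicate 2 (red diamonds) is the lowest of 4 in 10 of 10 groups for both genes, including TGFβ, where Smad7 of replicate 2 was at 96.8 CPM (LacZ) and 79.4 CPM (iCre).

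Across the 10 groups, Pmepa1 had the widest range of mean levels, 10.8-fold, from 147 CPM in LacZ cells with TNFα to 1584 CPM in iCre cells with TGFβ. Smad7 spanned 5.94-fold and Skil 5.51-fold, Smad3 3.54-fold and Smad6 2.85-fold, while Smad1, Smad5, Smad2, Ski and Smad4 spanned 1.51-fold or less. When the groups were ordered by mean, most neighbours overlapped. Skil had 3 of 9 steps without overlap, namely LacZ with TGFβ above iCre with TGFβ, that above LacZ with IL-1β, and that above iCre with bFGF. Smad7 and Pmepa1 each had 1 such step, between the lower TGFβ group and the next treatment. For Smad3, iCre with bFGF stood above iCre with IL-1β, and LacZ with TNFα above iCre with TGFβ. Smad1, Smad2 and Smad4 each had 1 step, below LacZ with TGFβ, and Smad5, Smad6 and Ski had none.

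Other genes of the TGFβ and bone morphogenetic protein pathways were counted from a list of 39, with 7 ligands, 13 receptors, 12 SMAD regulators and 7 SMAD targets. With TGFβ in LacZ cells 18 of the 39 rose and 9 fell, where 36.9% of all genes were called, and the median log2 fold change was 0.27 against −0.17 over all genes tested. Ctgf, for a matricellular protein, was 131 ± 82.7 CPM in CTRL and 5445 ± 1339.8 CPM with TGFβ (n = 4, SD; log2 fold change 5.39, SE 0.45, edgeR adjusted p = 1.19e-05). Fstl3, for a secreted binder of activin, went from 26.5 ± 6.30 to 346 ± 73.0 CPM (log2 fold change 3.72, SE 0.23, edgeR adjusted p = 2.72e-06). Of the 7 ligands 4 rose and 2 fell, of the 13 receptors 6 rose and 3 fell, of the 12 SMAD regulators 5 rose and 2 fell, and of the 7 targets 3 rose and 2 fell. In LacZ cells 13 of the 39 rose and 6 fell with IL-1β (20.7% of all genes called), 12 rose and 7 fell with TNFα (21.3%), and 8 rose and 1 fell with bFGF (11.6%), with medians of 0.15, 0.02 and 0.19. With the replicate block 21 rose and 12 fell with TGFβ (42.0% of all genes), 19 rose and 10 fell with IL-1β (33.5%), 15 rose and 12 fell with TNFα (35.5%), and 15 rose and 6 fell with bFGF (27.3%). In iCre against LacZ cells, 6 of the 39 were lower and 0 higher under TGFβ, 8 lower and 2 higher under IL-1β, and 11 lower and 4 higher under TNFα, with calls in both directions among the SMAD targets under IL-1β (2 lower, 2 higher) and, under TNFα, among the ligands (1 lower, 2 higher), the SMAD regulators (2 lower, 1 higher) and the SMAD targets (2 lower, 1 higher). Of these, 2 of the 13 receptors were lower and 0 higher under TGFβ (8.37% of all genes called), 4 and 0 under IL-1β (16.1%), and 6 and 0 under TNFα (27.3%). With the block 7 receptors were lower and 0 higher under TGFβ (20.8%), 8 lower and 1 higher under IL-1β (29.5%), and 8 lower and 0 higher under TNFα (32.2%). Over all 39 genes the block gave 12 lower and 3 higher under TGFβ, 16 and 7 under IL-1β, and 15 and 6 under TNFα. In CTRL 1 of the 39 was lower and 0 higher (0.0754% of all genes called), and 10 and 7 with the block (14.5%). With bFGF the counts were 0 and 0 (0%), and 13 and 5 with the block (13.9%). These list counts were not computed with the GC correction.

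Genes whose mean log2 CPM over the 10 groups followed that of the 3 members most changed by TGFβ were taken from 13063 named genes that averaged 1 CPM or more. For Pmepa1 they were Ncam1 (Pearson's r = 0.990), Ifitm10 (0.989) and Hacd1 (0.989), for Smad7 they were Ccl17 (0.996), Fermt2 (0.995) and Tars (0.993), and for Skil they were Senp5 (0.992), Selenoi (0.987) and Larp4b (0.983). These values describe 10 group means from shared libraries, and over the 40 libraries r was 0.88 to 0.97 for the same 9 genes. Among the members, r over the 10 group means was 0.95 between Smad7 and Pmepa1, 0.94 between Smad7 and Skil and 0.88 between Skil and Pmepa1, and it was −0.77 between Smad3 and Pmepa1.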

How the data were processed

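Polyadenylated RNA of 40 libraries (10 groups of 4) was sequenced. The authors deposited raw read counts per gene, made with STAR on mm10 per the methods, and with FastQC 0.10.1 and HTSeq 0.10.0 per the submitters' processing notes (the methods give another FastQC version). The annotation release and strand setting were not given in the sources used here, and the library kit is named differently in the labels and in the methods. Of 55414 gene identifiers, 52133 were named from GENCODE and 22066 had no count in any library.

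The 25210 genes with at least 10 counts over all libraries were fitted with edgeR 4.0.16 (quasi-likelihood, TMM scaling, two-sided, Benjamini-Hochberg threshold 0.05) in R 4.3.3, using the 8 libraries compared, or 16 for an interaction. P-values measure the spread between these replicates. "Called" means an adjusted p of 0.05 or less. Samples of the same replicate number deviated together from their group means in each of 13 comparisons (correlation 0.33 to 0.86 over 13090 genes, against 0.42 or less between different numbers), so the number was also fitted as a block. The pairing comes from these correlations, since the labels give only a number. Alternatives were DESeq2 1.42.0, other scalings and filters, all 40 libraries in 1 fit, each replicate number left out, and an offset for transcript GC content (24970 genes), alone and with the block. Scripts were tested on simulated data. Counts came without molecular identifiers, and totals of 25360947 to 66160732 reads limit counting precision only.

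The 10 members are all named. Of the pathway list, the rule names the 3 genes with the largest change among those called with TGFβ in LacZ cells, of which 1 is not reported here, and for the members TGFβ changed most, the 3 genes most alike over the groups are named. Members and lists were chosen with earlier results of these data known. Tables were made with Python 3.11.15, pandas 2.3.3 and numpy 2.4.6, and plots with matplotlib 3.10.9.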

Additional observations from a re-analysis of the deposited data

Results flagged for a closer look

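In 6 of 100 gene and group combinations 1 library stood apart from the other 3 by Dixon's criterion, which chance alone exceeds in about 1 of 20. Replicate 2 was low for Smad6 with TGFβ in LacZ cells (28.7 CPM, others 46.0 to 49.3), for Smad7 with bFGF in LacZ cells (18.0 CPM, others 36.3 to 37.8) and for Smad7 with TNFα in iCre cells (17.6 CPM, others 30.6 to 32.5). Replicate 1 was high for Smad4 with TNFα in LacZ cells (115 CPM, others 103 to 105) and for Ski with IL-1β in LacZ cells (349 CPM, others 293 to 296). Replicate 4 was high for Skil with IL-1β in iCre cells (88.0 CPM, others 59.7 to 64.1).

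Without block or GC correction, 7 of 40 interactions of ligand and virus were called with edgeR. With TGFβ these were Smad5 (−0.42) and Skil (−0.69), with IL-1β Skil (−0.91), and with TNFα Smad5 (−0.35), Smad4 (−0.38), Skil (−0.55) and Pmepa1 (0.93), each as log2 fold change in iCre minus that in LacZ cells. Only Smad4 and Pmepa1 with TNFα were called with the GC correction alone. With the GC correction and the block, the Skil interaction with IL-1β was called as well (−0.54, edgeR adjusted p = 0.0131).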

How the results depend on the processing

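Over 170 log2 values (10 members in 17 comparisons), the replicate block added 43 calls, removed 1 and left 126 on their side of the threshold. Numbers of called members that moved by over 1.5 times are given here, and the cause was not tested. With the block they were 5 (bFGF), 5 (IL-1β) and 8 (TNFα) in LacZ cells, 5 with each of these ligands in iCre cells, 4 in CTRL, 4 with bFGF, 4 with TGFβ and 5 with IL-1β for iCre against LacZ, and 2 for the IL-1β interaction. The shares of all genes called were, in the same order, 27.3%, 33.5%, 35.5%, 16.7%, 33.8%, 36.1%, 14.5%, 13.9%, 20.8%, 29.5% and 16.9%. With the GC correction and the block the members called were 5, 5 and 5 in LacZ cells, 5, 6 and 4 in iCre cells, 5, 5, 4 and 5 for iCre against LacZ, and 2 for the IL-1β interaction. The shares of all genes were 27.2%, 33.8% and 36.1%, then 16.5%, 29.4% and 34.5%, then 15.0%, 14.3%, 9.53% and 22.5%, and 12.2%. Under the GC correction alone the members called were 2 (IL-1β) and 3 (TNFα) in iCre cells, 0, 0 and 3 for iCre against LacZ with TGFβ, IL-1β and TNFα, and 0, 0 and 2 for their interactions. The shares of all genes were 9.64% and 24.4%, then 1.01%, 9.04% and 22.9%, and 0.565%, 3.84% and 11.9%. With library size alone the members called were 4 with TGFβ and 2 with IL-1β in LacZ cells, 2 with TNFα in iCre cells and 1 for iCre against LacZ with TGFβ. The shares of all genes were 42.3%, 23.4%, 26.5% and 8.65%. DESeq2 called 2 (IL-1β) and 4 (TNFα) in LacZ cells, 2 each with bFGF, IL-1β and TNFα in iCre cells, 1 in CTRL and 4 with TGFβ for iCre against LacZ, and 2 for the IL-1β interaction. Of the genes it tested it called 34.1% and 34.8%, then 11.7%, 30.6% and 41.8%, then 8.88% and 26.7%, and 17.5%. With 40 libraries in 1 fit the members called were 2 (IL-1β, LacZ), 2 (bFGF, iCre), 3 (IL-1β, iCre), 1 (iCre against LacZ in CTRL) and 2 (IL-1β interaction). The shares of all genes were 21.6%, 6.04%, 19.4%, 1.61% and 7.82%. The filterByExpr filter gave 4 (TNFα, LacZ), 2 (IL-1β, iCre), 4 (iCre against LacZ with TGFβ) and 2 (IL-1β interaction), against 39.0%, 29.9%, 20.1% and 15.1% of the genes it kept. RLE scaling and no filter moved none of these numbers by over 1.5 times, although with RLE Smad4 replaced Skil as the 1 member called with IL-1β in iCre cells, and without a filter Smad5 lost its calls with TGFβ in iCre cells and in the TNFα interaction.

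Among changes called in either fit, direction reversed with library size alone for Smad2 (−0.03) and Smad4 (−0.11) with TGFβ in LacZ cells and for Smad2 (−0.04) and Ski (−0.14) in iCre cells, with the GC correction and the block for Ski with IL-1β in iCre cells (−0.16), and for Skil in iCre against LacZ with TGFβ (0.01 with the GC correction, with and without the block). That library-size scaling shifted the median log2 fold change of well-counted genes by −0.45 to 0.13.

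With each replicate number left out, called members ranged from 1 to 3 (bFGF), 5 to 8 (TGFβ), 1 to 4 (IL-1β) and 2 to 3 (TNFα) in LacZ cells, and from 0 to 4, 4 to 7, 0 to 2 and 0 to 2 in iCre cells. The shares of all genes called moved too, in the same order from 1.32% to 18.2%, 25.9% to 37.1%, 9.22% to 23.4% and 10.5% to 23.5% in LacZ cells. In iCre cells they ran from 0% to 12.7%, 27.0% to 40.0%, 6.85% to 18.1% and 14.0% to 25.4%. For iCre against LacZ they ranged from 0 to 2 in CTRL, 0 to 0 with bFGF, 0 to 3 with TGFβ, 0 to 2 with IL-1β and 1 to 5 with TNFα, and for the interactions from 0 to 0, 0 to 3, 0 to 1 and 1 to 2 in the order bFGF, TGFβ, IL-1β and TNFα.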
